A study of Homo sapiens with 9 samples.

Results

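The genes described here are 10 that mark or control how tightly epithelial cells adhere: the classical cadherins CDH1 (E-cadherin), CDH2 (N-cadherin) and CDH3 (P-cadherin), the epithelial adhesion molecule EPCAM, the mesenchymal products VIM (vimentin) and FN1 (fibronectin), and the transcription factors ZEB1, ZEB2, SNAI2 and TWIST1. They were chosen by symbol, and all 10 were found among 78894 Ensembl gene identifiers. They were followed in CAL27 cells, an established line of tongue squamous carcinoma. Per the labels, 3 Control samples of CAL27 were compared with 2 samples each of 3 knockout groups, A2ko, A8ko and C9ko, all grown in DMEM with fetal bovine serum and without treatment. The knockout cells were edited with CRISPR, and the study as titled is about an enhancer active in head and neck carcinoma. Which sequence was cut in each group is not named in the labels, and clones or pools, or any editing step in Control, are not mentioned there, so no targeted gene could be checked. The pair of A2ko samples held identical values for every identifier, as did the A8ko pair, and each pair was counted as 1 library. This left 7 distinct libraries, namely 3 Control, 1 A2ko, 1 A8ko and 2 C9ko.

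Classical cadherins hold neighbouring epithelial cells together through calcium-dependent binding outside the cell, and their tails bind catenins that tie the contact to actin. In epithelial to mesenchymal transition (EMT), transcription factors of the SNAI, ZEB and TWIST families bind E-box motifs and repress CDH1, while CDH2, VIM and FN1 become more abundant. Squamous carcinomas often show a partial form of this state, in which epithelial and mesenchymal genes are expressed together.

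Start-site regions of 3 members are shown, FN1 and CDH2 because they had the widest ranges over the groups among the more strongly expressed members. VIM is shown as a mesenchymal marker that was under 1 TPM in all libraries except A8ko, at 3.12 TPM. RefSeq windows (GRCh38.p14) of 250 bases before to 50 after a start site were held for 5 of the 10 members: CDH2, VIM, FN1, ZEB1 and ZEB2. For CDH1, CDH3, EPCAM, SNAI2 and TWIST1 no window was used. CDH2 has 2 windows in the table, of which the first is printed, and VIM and FN1 have 1 each. The 250 bases before the start are printed 5′ to 3′ on the gene's strand, for FN1 from chr2:215436069-215436318 (minus strand), for CDH2 from chr18:28177131-28177380 (minus strand) and for VIM from chr10:17227991-17228240 (plus strand). Capitals mark the cAMP response element letters TGACGTCA, the GC box letters GGGCGG and the E-box letters CANNTG, each searched on both strands.
FN1: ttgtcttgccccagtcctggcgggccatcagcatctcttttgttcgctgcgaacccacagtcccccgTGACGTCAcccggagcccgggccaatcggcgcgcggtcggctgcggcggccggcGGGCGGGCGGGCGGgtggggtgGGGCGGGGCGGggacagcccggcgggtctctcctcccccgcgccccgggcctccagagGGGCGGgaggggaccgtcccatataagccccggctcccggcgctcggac
CDH2: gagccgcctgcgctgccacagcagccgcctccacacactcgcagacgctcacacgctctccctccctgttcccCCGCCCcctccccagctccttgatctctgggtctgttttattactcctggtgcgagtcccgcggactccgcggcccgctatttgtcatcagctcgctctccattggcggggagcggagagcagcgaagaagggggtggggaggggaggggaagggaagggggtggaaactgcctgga
VIM: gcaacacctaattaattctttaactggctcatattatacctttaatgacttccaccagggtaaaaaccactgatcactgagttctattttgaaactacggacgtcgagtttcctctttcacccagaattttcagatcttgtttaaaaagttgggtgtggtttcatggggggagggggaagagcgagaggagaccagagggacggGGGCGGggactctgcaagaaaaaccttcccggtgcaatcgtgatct
The FN1 window held 1 TGACGTCA, which begins 183 bases before the start, and 6 GGGCGG, some of which overlap. TGACGTCA occurred in 1.85% of 35116 windows of the same length, and GGGCGG in 45.0%. The printed CDH2 window held 1 GGGCGG, read as CCGCCC on the printed strand, and the VIM window held 1. The letters CANNTG, present in 68.7% of all windows, and the form CAGGTG, present in 20.6%, were absent from the 3 printed windows. TGANTCA, the AP-1 letters, was found in 7.71% of all windows and in none of the printed 3. The second CDH2 window, not printed, held no GGGCGG, 1 CANNTG beginning 97 bases before its start, and 1 TGANTCA beginning 102 bases before it. The GC content of the 300-base window printed in part was 76.7% for FN1, 67.0% for CDH2 and 48.0% for VIM, against a median of 58.7% over all windows.

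Values are TPM, read shares of a library scaled by transcript length so that levels can be compared between genes; the sequencing depth is unknown. Each library held 15556 to 16716 genes at 1 TPM or more, and mitochondrial transcripts took 23.1% to 26.9% of Control, 25.2% of A2ko, 20.6% of A8ko and 17.9% to 20.2% of C9ko libraries. The tests covered genes at 1 TPM or more in at least 2 distinct libraries, namely 17100 genes and 7 of the 10 members; VIM, ZEB1 and ZEB2 did not reach this level. Differences are on the scale of log2(TPM + 1). The test of C9ko used limma with a threshold of a Benjamini-Hochberg adjusted p under 0.05 over all tested genes. By that rule 3770 genes were higher and 1268 lower; scaling by the median of ratios gave 2702 and 2099, and removal of mitochondrial transcripts gave 2903 and 1901. The median difference of all tested genes was 0.11 in C9ko, 0.12 in A2ko and 0.09 in A8ko, and members are to be read against it. A2ko and A8ko have 1 distinct library each, so their values carry no test. The p-values measure only the spread between these samples, which the labels do not describe as separate cultures.

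Squamous markers were expressed in all libraries, at a lower summed level in every knockout than in Control. All 10 squamous epithelial markers (keratins, TP63 and desmosomal genes among them) were above 1 TPM everywhere, with a summed level of 16760 to 17855 TPM in Control, 6719 in A2ko, 7746 in A8ko and 10212 to 10360 in C9ko. In C9ko 6 of these 10 fell and none rose, against 7.42% and 22.0% of all tested genes. Below the Control range by at least 1 log2 unit were 4 of the 10 in A2ko and 6 in A8ko. Of all tested genes 1.53% and 2.68% were. No marker was above the range by that much in either. The median difference of the 10 was -0.53 in C9ko, -0.69 in A2ko and -1.13 in A8ko. Most listed markers of other cell types were under 1 TPM in all libraries. Fibroblast markers summed to 10.8 to 12.3 TPM in Control, 17.8 in A2ko, 7.43 in A8ko and 11.2 to 12.2 in C9ko. Of these, 7 of 10 were under 1 TPM in all libraries, with COL3A1 at 0 in each. Endothelial markers summed to 24.2 to 24.8 TPM in Control, 56.7 in A2ko, 16.8 in A8ko and 28.7 to 37.3 in C9ko, with KDR at 0 throughout. The tested endothelial markers were CDH5 and EGFL7, which went opposite ways in C9ko. EGFL7 was at 20.2 to 20.9 TPM in Control and at 43.5 in A2ko, 8.09 in A8ko, with 6.41 and 6.96 in C9ko, and it fell by 1.49 in C9ko (limma adjusted p = 3.48e-05), whereas CDH5 rose. Leukocyte markers summed to 42.3 to 50.4 TPM in Control, 59.8 in A2ko, 82.8 in A8ko and 65.4 to 66.8 in C9ko, with TYROBP at 0 throughout. The tested leukocyte markers, CD14 and CD68, were above 10 TPM in all libraries and went opposite ways in C9ko. CD14 was at 14.2 to 17.9 TPM in Control and rose by 1.66 in C9ko (limma adjusted p = 8.38e-05). CD68 was at 27.8 to 32.2 TPM in Control and 66.3 in A8ko, and fell by 1.01 in C9ko (limma adjusted p = 0.000206).

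In Control cells the members fell into a clear order of level. EPCAM was the most abundant at 244.3 ± 12.0 TPM (SD, n = 3), followed by CDH3 at 145.4 ± 4.56, CDH1 at 103.8 ± 3.13 and SNAI2 at 82.5 ± 3.96. FN1 stood at 8.44 ± 0.586 TPM, CDH2 at 6.15 ± 0.720 and TWIST1 at 3.55 ± 0.425. The 3 Control values of neighbours in this order did not overlap, from EPCAM down to TWIST1. VIM, ZEB2 and ZEB1 were all under 0.25 TPM in Control, and their values overlapped. The Control cells thus had high levels of the epithelial adhesion genes and SNAI2, and little or no transcript of vimentin and the ZEB factors.

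**Figure D1:**
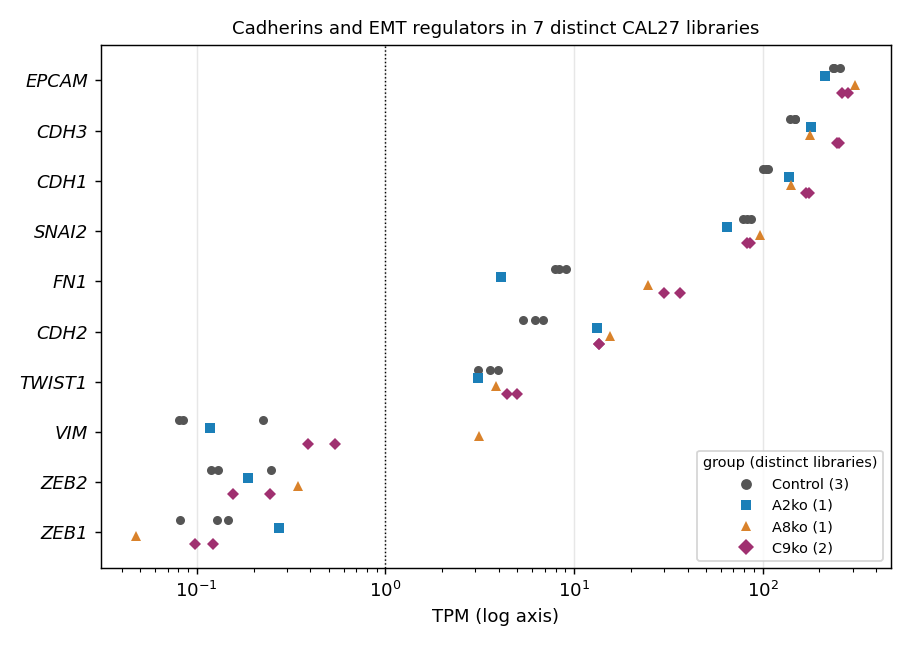
Level of each of the 10 genes in each distinct library, in TPM on a log axis; every symbol is 1 library, its shape and colour give the group, and the dotted line marks 1 TPM. CDH1, CDH2 and CDH3 lie above the Control libraries in all knockout libraries, FN1 lies on both sides of them, and VIM, ZEB1 and ZEB2 stay under 1 TPM apart from VIM in A8ko at 3.12 TPM.

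The epithelial cadherins were not lost in any knockout: CDH1 and CDH3 rose in C9ko and lay above Control in A2ko and A8ko. CDH1, on chromosome 16 (68737225 to 68835548, plus strand, GENCODE release 29 on GRCh38), was at 104.8, 100.3 and 106.3 TPM in Control. It was at 138.3 in A2ko, 140.8 in A8ko, with 170.2 and 177.0 in C9ko. No knockout library overlapped Control, and the C9ko pair was highest. In C9ko the difference was 0.74 on the log2 scale (SE 0.06, 95% interval 0.59 to 0.88, limma adjusted p = 0.000249), a ratio of mean TPM of 1.67; the ratio was 1.33 in A2ko and 1.36 in A8ko. The A2ko difference was 0.41, and 0.25 under median of ratios scaling; that of A8ko was 0.44. In bulk RNA, more cells with a transcript and more transcript per cell cannot be told apart, and neither can fewer cells and less RNA per cell.

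CDH3, the cadherin of basal epithelial layers, lies on the same strand of chromosome 16 (68636189 to 68722616), 14.6 kb from CDH1. Its level was 147.7, 140.2 and 148.4 TPM in Control, 181.4 in A2ko, 178.6 in A8ko, with 254.7 and 249.0 in C9ko. The C9ko libraries again stood above the others, and A2ko and A8ko lay close together between them and Control. The difference was 0.79 in C9ko (SE 0.06, 95% interval 0.65 to 0.93, limma adjusted p = 0.000186), 0.32 in A2ko (0.15 under median of ratios scaling) and 0.30 in A8ko. The ratio of CDH3 to CDH1 ran from 1.40 to 1.41 in Control, and was 1.31 in A2ko, 1.27 in A8ko, with 1.496 and 1.407 in C9ko.

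CDH2, the neural and mesenchymal cadherin (chromosome 18, 27950966 to 28177446, minus strand), was above all Control libraries in every knockout and stayed far below CDH1 and CDH3. It was at 6.21, 5.40 and 6.83 TPM in Control and at 13.2 in A2ko, 15.5 in A8ko, and 13.6 in both C9ko libraries. The knockout libraries lay close to one another. The ratio of mean TPM came to 2.15 in A2ko, 2.52 in A8ko and 2.22 in C9ko. CDH2 rose in C9ko by 1.04 (SE 0.10, 95% interval 0.79 to 1.28, limma adjusted p = 0.000555). The difference was 0.99 in A2ko and 1.21 in A8ko; the A2ko value was 0.84 under median of ratios scaling.

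CDH2 remained a small part of the transcripts of these cadherins. As a share of the summed TPM of CDH1, CDH2 and CDH3 it was 2.20% to 2.61% in Control, 3.96% in A2ko, 4.63% in A8ko and 3.10% in both C9ko libraries. The sum of CDH1 and CDH3 went from 240.5 to 254.7 TPM in Control to 319.7 in A2ko, 319.4 in A8ko and 424.9 to 426.0 in C9ko. The highest CDH2 share was thus in A8ko, whereas the highest sum of epithelial cadherins was in C9ko.

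EPCAM, a homophilic adhesion protein of simple and cancerous epithelia (chromosome 2, 47345158 to 47387601, plus strand), lay below Control in A2ko and above it in A8ko. It was at 258.1, 236.2 and 238.6 TPM in Control and at 213.0 in A2ko, 307.5 in A8ko, with 262.7 and 282.7 in C9ko. The A2ko library was under and the A8ko library over all Control libraries; the C9ko libraries lay above the highest Control library. In C9ko the difference was 0.16 (SE 0.07, 95% interval -0.01 to 0.33) and did not pass the test (limma adjusted p = 0.140). It was 0.035 under median of ratios scaling and 0.058 without mitochondrial transcripts, where the C9ko libraries no longer lay above Control.

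FN1, which encodes the matrix glycoprotein bound by integrins (chromosome 2, 215360440 to 215436172, minus strand), had the widest range of the 7 tested members and split the knockouts. It was at 9.06, 7.90 and 8.37 TPM in Control and at 4.08 in A2ko, 24.7 in A8ko, with 30.0 and 36.4 in C9ko. The A2ko library was below all Control libraries, and the A8ko and C9ko libraries were above them. In C9ko FN1 rose by 1.85 (SE 0.11, 95% interval 1.60 to 2.10, limma adjusted p = 6.47e-05), a ratio of mean TPM of 3.93. The ratio was 2.93 in A8ko and 0.483 in A2ko, with log2 differences of 1.45 and -0.89. Median of ratios scaling put the A2ko difference at -1.03. No other gene of the GENCODE annotation overlaps FN1.

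VIM, the intermediate filament of mesenchymal cells (chromosome 10, 17228259 to 17237593, plus strand), stayed close to 0 in most libraries. It was at 0.0810, 0.225 and 0.0841 TPM in Control and at 0.118 in A2ko, 3.12 in A8ko, with 0.388 and 0.539 in C9ko. Only the A8ko library exceeded 1 TPM, and both C9ko libraries lay above the Control libraries. VIM was outside the tested genes; without the filter on low values its difference in C9ko was 0.37 (limma adjusted p = 0.128). The antisense gene VIM-AS1 overlaps VIM, and the use of strand in counting is not given in the sources used here, so reads of the pair cannot be told apart. The same limit holds for CDH1, CDH2, CDH3, ZEB1, ZEB2 and TWIST1, each of which is overlapped by an antisense gene on the other strand.

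Among the EMT transcription factors, SNAI2 (Slug) was the only one at a high level, and it did not pass the test in C9ko. SNAI2 (chromosome 8, 48917604 to 48921740, minus strand) was at 86.3, 78.4 and 82.8 TPM in Control and at 65.0 in A2ko, 96.7 in A8ko, with 82.9 and 85.3 in C9ko. A2ko was below and A8ko above all Control libraries, and both C9ko libraries lay inside the Control range on the deposited scale. The C9ko difference was 0.03 (SE 0.07, 95% interval -0.13 to 0.18, limma adjusted p = 0.776), and it was -0.094 under median of ratios scaling and -0.071 without mitochondrial transcripts.

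TWIST1, a basic helix-loop-helix factor (chromosome 7, 19020991 to 19117672, minus strand), was at 3.10, 3.60 and 3.94 TPM in Control and at 3.11 in A2ko, 3.85 in A8ko, with 5.02 and 4.39 in C9ko. The A2ko and A8ko libraries lay within the Control range and the C9ko pair above it. The C9ko difference of 0.33 (SE 0.12, 95% interval 0.04 to 0.62) did not pass the test (limma adjusted p = 0.0867). ZEB1 and ZEB2, zinc finger repressors of CDH1, were under 0.35 TPM in every library. ZEB1 ranged from 0.0813 to 0.147 TPM in Control and was at 0.274 in A2ko, 0.0479 in A8ko, with 0.123 and 0.098 in C9ko. ZEB2 ranged from 0.119 to 0.249 TPM in Control and was at 0.187 in A2ko, 0.343 in A8ko, with 0.156 and 0.245 in C9ko. Without the filter on low values, the C9ko difference was -0.01 for ZEB1 (limma adjusted p = 0.909) and 0.04 for ZEB2 (limma adjusted p = 0.773).

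In counts, 4 of the 7 tested members rose in C9ko (CDH1, CDH2, CDH3 and FN1) and none fell. Of all tested genes, 22.0% were called higher and 7.42% lower, 29.5% in either direction. These shares are from 3770 genes higher and 1268 lower. With median of ratios scaling 2702 were higher and 2099 lower, and without mitochondrial transcripts 2903 and 1901. The count of 4 higher and 0 lower was the same with median of ratios scaling, without mitochondrial transcripts and without either C9ko library. CDH1, CDH2 and CDH3 were the members for which every knockout library exceeded every Control library, against 17.0% of tested genes; no member had every knockout library below Control, against 4.61%. In A2ko 3 members were above all Control libraries, against 50.4% of tested genes, and 3 were below (EPCAM, FN1 and SNAI2), against 26.3%. In A8ko 6 members were above, all but TWIST1, against 46.9% of tested genes. In C9ko 6 were above, all but SNAI2, against 41.1%. Under median of ratios scaling and without mitochondrial transcripts, EPCAM was no longer above Control in C9ko. This left 5 members above, against 29.2% and 30.4% of tested genes under these 2 settings. SNAI2 lay below every Control library in C9ko under both, against 26.7% and 24.2% of tested genes. Median of ratios scaling also put TWIST1 below every Control library in A2ko, where 41% of tested genes lay below.

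Among the 7 tested members FN1 and CDH2 had the largest differences. VIM, which was not tested, had a larger difference than either in A8ko, at 1.87, and is outside the counts that follow. A value outside the Control range, and away from the mean of Control by 1 log2 unit or more, was reached by FN1 and CDH2 in A8ko, where 4.73% of tested genes did so (2.05% higher, 2.68% lower), and by the same pair in C9ko, where 5.11% did (3.33% higher, 1.78% lower). In A2ko no member reached it, against 5.07% of tested genes (3.54% higher, 1.53% lower); CDH2 at 0.99 was just short, and reached 1.03 without mitochondrial transcripts, while FN1 reached -1.03 with median of ratios scaling. Each Control library held against the other 2 gave 0.614% to 0.661% of genes.

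**Figure D2:**
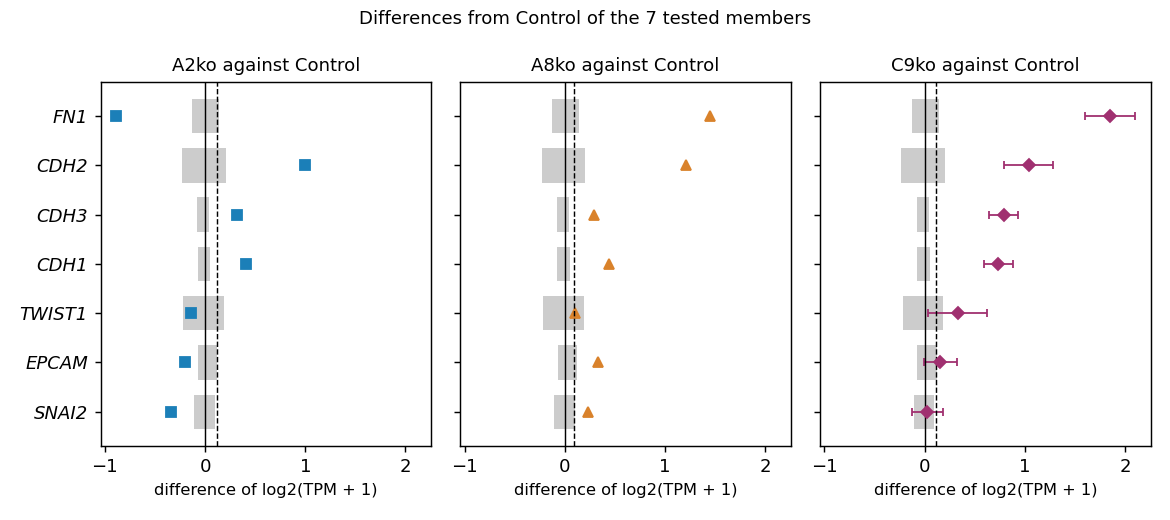
Difference of log2(TPM + 1) from the Control mean for the 7 tested members, 1 panel per knockout; bars in C9ko are 95% intervals from limma, A2ko and A8ko have 1 library and no error bar, and the dashed line is the median of all tested genes. FN1 lies at 1.45 in A8ko, 1.85 in C9ko and -0.89 in A2ko, whereas CDH2 lies between 0.99 and 1.21 in all.

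Taking each knockout group as 1 value, 3 knockout means were compared with 3 Control libraries by limma, which called 176 genes, 1.03% of those tested. Without Control replicate 1, 2 or 3 this count was 11, 5 and 5, so calls over all knockouts rest on the full set of Control libraries. Among the members CDH2 was called, with a difference of 1.08 (SE 0.13, 95% interval 0.78 to 1.38, limma adjusted p = 0.0228). This call was lost when Control replicate 1, 2 or 3 was left out (limma adjusted p = 0.169, 0.156 and 0.132), without C9ko (0.0639) and with no filter on low values (0.0797). CDH1 was 0.53 higher over the knockouts (SE 0.11, 95% interval 0.27 to 0.79, limma adjusted p = 0.0866), and it passed without A2ko (limma adjusted p = 0.0198). For CDH3 the difference was 0.47 (limma adjusted p = 0.197). FN1 differed by 0.80 with an SE of 0.65 (limma adjusted p = 0.580), with A2ko and the other knockouts on opposite sides; without A2ko its difference was 1.65 (limma adjusted p = 0.00190). EPCAM, SNAI2 and TWIST1 differed by 0.10, -0.03 and 0.10, with limma adjusted p = 0.773, 0.949 and 0.817.

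The proteins that bind cadherins inside the cell or stand beside them at the junction moved in both directions. Of 19 tested junction partners, 9 rose and 3 fell in C9ko, against 22.0% and 7.42% of all tested genes, with a median difference of 0.24. CTNNB1 (beta-catenin), which binds the cadherin tail, rose from 68.5, 72.9 and 73.0 TPM in Control to 163.3 and 186.5 in C9ko, a difference of 1.28 (limma adjusted p = 8.21e-05); it was at 96.1 in A2ko and 97.9 in A8ko. JUP (plakoglobin), its close relative, fell by 0.42 in C9ko (limma adjusted p = 0.00428, and 0.0650 with a replicate block), from 408.1 to 441.5 TPM in Control to 313.6 and 328.4. RHOA, the small GTPase that controls junctional actin, rose by 1.06 in C9ko (limma adjusted p = 0.000133), and its difference was 0.01 in A2ko and 0.05 in A8ko.

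The nectins, which are calcium-independent adhesion molecules of the same junction, went different ways. NECTIN2 rose by 1.13 in C9ko (limma adjusted p = 8.21e-05), and was among the genes called over all knockouts, at 0.92 (limma adjusted p = 0.0260). NECTIN1 fell by 0.81 in C9ko (limma adjusted p = 0.000302) and over all knockouts by 0.74 (limma adjusted p = 0.0432). NECTIN4 fell by 0.36 in C9ko (limma adjusted p = 0.0182), and missed the threshold without C9ko replicate 1 (0.0992). NECTIN3 was at 1.87 to 2.56 TPM in Control and at 5.96 in A2ko, 6.12 in A8ko, with 3.82 and 3.67 in C9ko. CTNNAL1, an alpha-catenin relative, was at 79.2 to 85.8 TPM in Control and at 77.8 in A2ko, 188.4 in A8ko, with 143.6 and 155.8 in C9ko.

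Most other genes of the cadherin superfamily were barely detected. Of 33 listed, 21 were under 1 TPM in all libraries and 12 were tested. Of these, 3 rose and 3 fell in C9ko, against 22.0% and 7.42% of all tested genes. With median of ratios scaling the counts were 1 and 5, where 2702 of all tested genes rose and 2099 fell. Without mitochondrial transcripts they were 2 and 6 of 13, where 2903 of all tested genes rose and 1901 fell. CDH5 (VE-cadherin), the classical cadherin of endothelium, had the largest difference of the 12 in C9ko. It was at 4.27, 3.61 and 3.21 TPM in Control and at 12.6 in A2ko, 8.15 in A8ko, with 21.9 and 29.9 in C9ko. All knockout libraries were above all Control libraries, and CDH5 rose in C9ko by 2.51 (SE 0.15, limma adjusted p = 8.35e-05). CDH5 is also one of the endothelial markers, of which 5 of 7 were under 1 TPM in all libraries and KDR was at 0; EGFL7, the other one tested, fell in C9ko. The protocadherin PCDH1 rose by 0.40 in C9ko (limma adjusted p = 0.0335), a call lost with median of ratios scaling (0.0890) and without Control replicate 1 or 2 or either C9ko replicate (0.0739 to 0.144). The atypical cadherins CELSR2 and FAT2 fell by 0.49 and 0.35, with limma adjusted p = 0.00591 and 0.0115; FAT2 missed the threshold without C9ko replicate 2 (0.0634). The protocadherin PCDH7 fell by 0.33 (limma adjusted p = 0.0468), a call lost without any 1 Control replicate or without C9ko replicate 2 (0.0848 to 0.235).

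**Figure D3:**
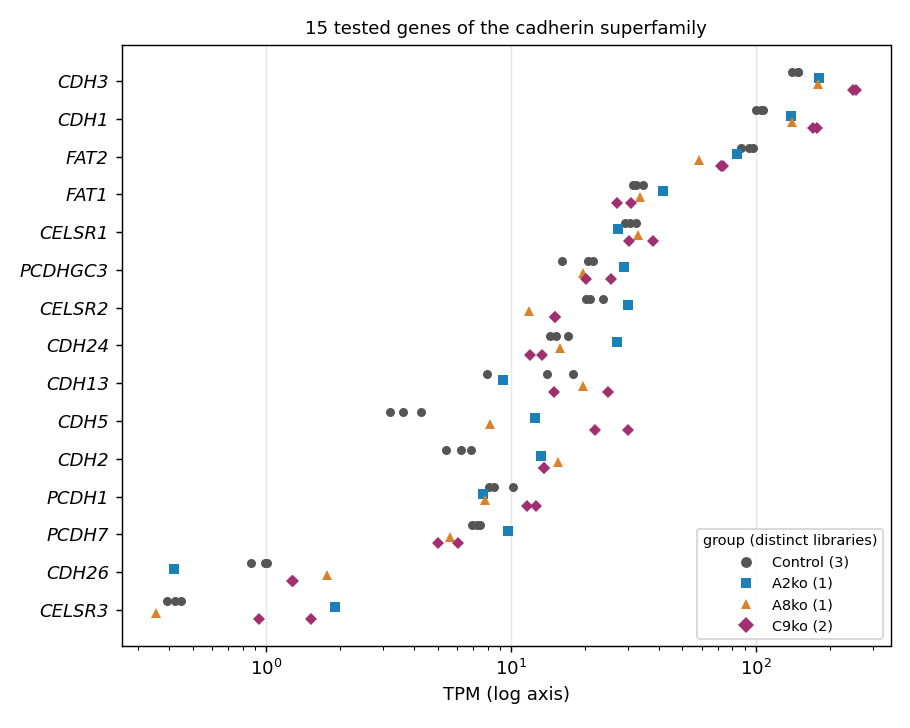
Level of the 15 tested genes of the cadherin superfamily, CDH1, CDH2 and CDH3 included, in TPM on a log axis, with 1 symbol per distinct library. CDH1 and CDH3 are at 100.3 TPM or more everywhere, and CDH5 runs from 3.21 TPM in Control to 29.9 in C9ko.

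Regulators that keep epithelial identity were also split. Of 21 tested, 10 rose and 4 fell in C9ko, against 22.0% and 7.42% of all tested genes, with a median of 0.15, near that of all genes; the median was -0.01 in A2ko and -0.02 in A8ko. OVOL1, a repressor of EMT factors, rose from 5.37 to 6.49 TPM in Control to 14.9 and 13.6 in C9ko, a difference of 1.13 (limma adjusted p = 0.000330). ST14 (matriptase) rose by 0.81 (limma adjusted p = 0.000194) and KLF4 by 0.64 (limma adjusted p = 0.00112). RAB25, an epithelial trafficking GTPase, fell by 1.06 (limma adjusted p = 7.19e-05). ELF3, an epithelial ETS factor, was at 162.1 to 181.8 TPM in Control and at 210.2 in A2ko, 54.9 in A8ko, with 90.3 and 93.0 in C9ko, and it fell by 0.91 in C9ko (limma adjusted p = 0.000189). KLF5 fell by 0.84 in C9ko (limma adjusted p = 0.000127), and its difference was -1.10 in A8ko and -0.21 in A2ko.

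Of 23 other EMT transcription factors and partners, 14 were tested. In C9ko 6 rose and 4 fell, against 22.0% and 7.42% of all tested genes. With median of ratios scaling the counts were 4 and 5, where 2702 of all tested genes rose and 2099 fell. The median of the list was 0.19, and -0.03 without mitochondrial transcripts. HMGA2, an architectural factor that acts upstream of SNAI and TWIST genes, was at 27.5 to 29.7 TPM in Control and at 17.1 in A2ko, 123.8 in A8ko, with 75.8 and 82.6 in C9ko. HMGA2 rose in C9ko by 1.44 (limma adjusted p = 3.48e-05); the A2ko library lay below Control, the same order of groups as for FN1 except that A8ko exceeded C9ko. SOX4 rose by 1.40 in C9ko (limma adjusted p = 9.30e-05) and was above Control in both other knockouts, by 0.53 in A2ko and 0.89 in A8ko. LOXL2, a lysyl oxidase that also stabilises SNAI1, rose by 1.05 in C9ko (limma adjusted p = 0.000139) and over all knockouts by 0.95 (limma adjusted p = 0.0308).

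ID1 and ID3, inhibitors of basic helix-loop-helix factors, fell by 1.59 and by 0.81 in C9ko (limma adjusted p = 0.000119 and 0.000646). ID1 was at 378.2 to 473.2 TPM in Control and at 497.3 in A2ko, 106.3 in A8ko, with 133.2 and 149.5 in C9ko. The ID3 difference was -1.40 in A8ko and -0.03 in A2ko. FOXC1 fell by 0.40 in C9ko (limma adjusted p = 0.0130), and missed the threshold without C9ko replicate 1 (0.0536) or 2 (0.0622). SNAI1 (Snail), the founding member of the family of SNAI2, was at 1.51, 2.10 and 1.11 TPM in Control and 4.11 in A2ko. It lay within the Control range in A8ko at 1.34. SNAI1 is named here after its values were seen, and its A2ko level rests on 1 library. Its C9ko level is not given here, so these values do not describe SNAI1 over all knockouts.

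Of 26 structural and surface genes of mesenchymal cells, 17 were tested, and 11 rose and 2 fell in C9ko, against 22.0% and 7.42% of all tested genes. Their median was 0.65; the median was 0.24 in A2ko and 0.09 in A8ko. TAGLN (transgelin), an actin-binding protein, rose from 6.93 to 7.11 TPM in Control to 23.7 and 31.9 in C9ko, a difference of 1.83 (limma adjusted p = 0.000126). SPARC, a matrix glycoprotein, was at 205.8 to 216.5 TPM in Control and at 373.9 in A2ko, 400.3 in A8ko, with 507.3 and 528.0 in C9ko, and it rose over all knockouts by 1.02 (limma adjusted p = 0.0276). The receptor kinase AXL rose in C9ko by 1.29 (limma adjusted p = 6.79e-05); its difference was 2.10 in A8ko and 0.06 in A2ko. S100A4 fell by 0.93 in C9ko (limma adjusted p = 0.000222) and over all knockouts by 0.85 (limma adjusted p = 0.0451). MYLK, the myosin light chain kinase, fell by 0.56 in C9ko (limma adjusted p = 0.00159).

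In A2ko the mesenchymal genes with the largest differences were the collagen VI chains. COL6A1 was at 6.44 to 7.70 TPM in Control and at 45.3 in A2ko, 11.5 in A8ko, with 9.58 and 8.38 in C9ko. COL6A2 was at 3.18 to 3.94 TPM in Control and at 21.8 in A2ko, 3.11 in A8ko, with 3.69 and 3.26 in C9ko. In A8ko NT5E (CD73) was at 54.3 TPM, against 16.9 to 19.3 in Control, 11.3 in A2ko, and 39.6 and 42.5 in C9ko.

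The 34 partial EMT genes, listed from general knowledge of the program described in head and neck carcinoma, all entered the test. As with the other lists, earlier results of these data were known when they were chosen, so their counts only describe these data. Of the 34, 26 were at 10 TPM or more in all libraries. In C9ko 24 rose and 6 fell, against 22.0% and 7.42% of all tested genes. The median was 0.73, and it was 0.37 in A8ko and 0.10 in A2ko. INHBA (activin A) rose from 13.1 to 13.3 TPM in Control to 63.5 and 67.3 in C9ko, a difference of 2.23 (limma adjusted p = 7.32e-06); it was at 60.4 in A8ko and 7.93 in A2ko. TNC (tenascin C), a matrix protein that binds FN1, rose by 1.61 in C9ko (limma adjusted p = 1.77e-05). TNFRSF6B, a decoy receptor, rose by 2.10 in C9ko (limma adjusted p = 0.000639), from 0.278 to 1.12 TPM in Control.

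ACKR3, a scavenging chemokine receptor, was low in every knockout: it was at 80.5 to 90.6 TPM in Control and at 31.2 in A2ko, 29.1 in A8ko, with 25.8 and 24.8 in C9ko. It fell by 1.57 over all knockouts (limma adjusted p = 0.00359). PTHLH, the parathyroid hormone-like peptide, fell by 1.12 in C9ko (limma adjusted p = 8.04e-05), and was at 66.4 TPM in A2ko against 207.2 to 218.3 in Control. MMP10, a stromelysin, was at 17.3 to 18.6 TPM in Control and at 262.6 in A2ko, 5.13 in A8ko, with 3.01 and 2.84 in C9ko, and it fell by 2.28 in C9ko (limma adjusted p = 1.11e-05). TIMP3, a metalloproteinase inhibitor, showed the same sides, at 2.69 to 3.57 TPM in Control, 15.7 in A2ko, 0.631 in A8ko, with 1.18 and 0.677 in C9ko. COL17A1, the hemidesmosomal collagen, went the other way, at 112.9 to 121.6 TPM in Control, 36.2 in A2ko, 147.5 in A8ko, with 150.4 and 152.2 in C9ko.

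Most tested receptors for fibronectin rose in C9ko, as FN1 did. Of 10 tested, 7 rose and 2 fell, against 22.0% and 7.42% of all tested genes. The median was 0.95, and it was 0.49 in A2ko and 0.53 in A8ko. ITGB1, the beta chain of the main fibronectin receptor, rose by 1.005 in C9ko (limma adjusted p = 0.000106), from 82.5 to 86.9 TPM to 165.6 and 179.3. ITGB6 rose by 1.22 (limma adjusted p = 0.000103) and ITGB5 by 1.21 (limma adjusted p = 0.000160). ITGA4, an alpha chain that binds an alternative site of fibronectin, fell by 1.78 (limma adjusted p = 6.83e-05): it was at 7.28 to 7.54 TPM in Control and at 10.7 in A2ko, 0.586 in A8ko, with 1.60 and 1.32 in C9ko. SDC1 (syndecan 1) fell by 0.42 (limma adjusted p = 0.00284, and 0.0505 with a replicate block).

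SDC4 (syndecan 4), a co-receptor for fibronectin, was at 164.9 to 182.2 TPM in Control and at 422.4 in A2ko, 272.5 in A8ko, with 324.1 and 357.1 in C9ko, and it rose over all knockouts by 0.98 (limma adjusted p = 0.0483). ITGA5, the alpha chain that pairs with ITGB1 to bind fibronectin, was at 18.0 to 18.8 TPM in Control and 41.4 in A2ko, where FN1 itself was lowest; its difference was 0.56 in A8ko and 0.66 in C9ko. ITGA3 was at 123.1 to 129.1 TPM in Control and 260.0 in A8ko. In A2ko SDC4, ITGA5 and ITGA3 lay above all Control libraries and FN1 below them, and SDC1, at 188.5 TPM against 276.6 to 285.3 in Control, lay on the same side as FN1.

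**Figure D4:**
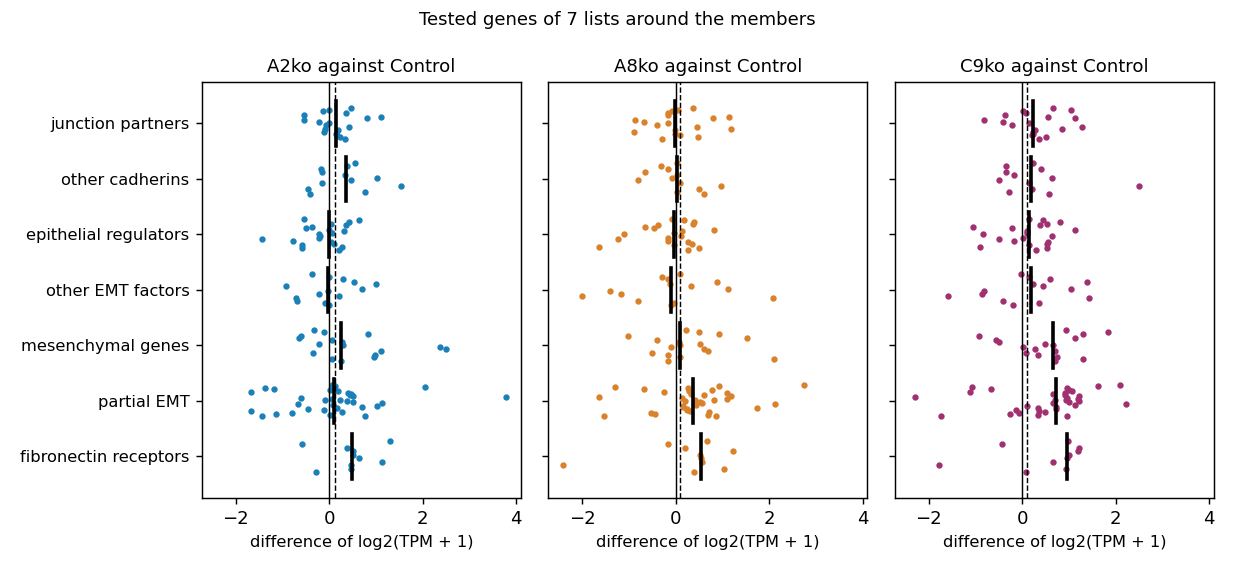
Difference of log2(TPM + 1) from the Control mean for each tested gene of 7 lists, 1 panel per knockout; points are genes, the bar is the median of the list and the dashed line the median of all tested genes. In C9ko the medians run from 0.15 for epithelial identity regulators to 0.95 for fibronectin receptors.

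The genes whose 4 group means followed FN1 most closely, after each was centred on its own mean, were KLRC2, CA9 and PLAUR, which deviated from FN1 by at most 0.15, 0.19 and 0.23 on the log2 scale over a span of 2.75. KLRC2 had means of 1.48 TPM in Control, 0.339 in A2ko, 4.68 in A8ko and 6.33 in C9ko. At such low levels the 1 added to each TPM shapes its likeness to FN1. CA9, a carbonic anhydrase, had means of 18.2 TPM in Control, 9.99 in A2ko, 41.8 in A8ko and 59.4 in C9ko. PLAUR, the urokinase receptor, had means of 18.6, 11.6, 50.3 and 66.7 TPM in the same order. For CDH2, with a span of 1.21, they were RASGRF1, TRAM2 and PTAFR, with largest deviations of 0.04, 0.08 and 0.10. RASGRF1 had means of 4.10 TPM in Control, 9.14 in A2ko, 11.4 in A8ko and 10.0 in C9ko. These likenesses rest on 4 group means and carry no test.

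CDH1 and CDH3 are neighbours, so the genes around them were examined. Of 20 tested genes within 500 kb of CDH1, CDH3 included, 7 rose and none fell in C9ko, with a median of 0.15. Of all tested genes 22.0% rose and 7.42% fell. TANGO6, 8.06 kb beyond CDH1, differed by -0.02 (limma adjusted p = 0.880), and ZFP90, 60.1 kb from CDH3 on the other side, by -0.04 (limma adjusted p = 0.816). HAS3, a hyaluronan synthase 270.0 kb away, rose by 1.77 in C9ko (limma adjusted p = 8.27e-05), and its difference was -1.50 in A2ko. ESRP2, an epithelial splicing regulator 499.1 kb away, rose by 0.52 (limma adjusted p = 0.000860).

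**Figure D5:**
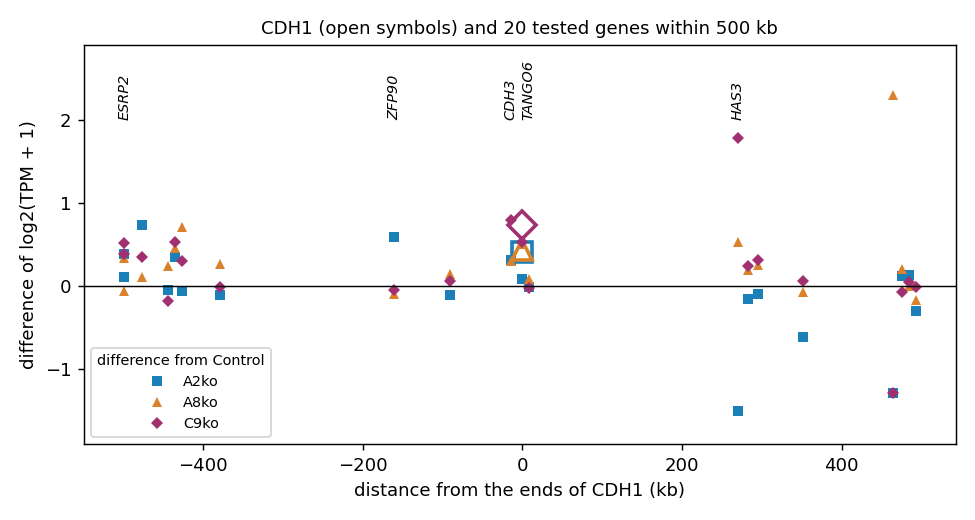
Difference of log2(TPM + 1) from the Control mean for CDH1 (open symbols, at distance 0) and for 20 tested genes within 500 kb, by distance from the ends of CDH1 in kb; symbols give the knockout. CDH3, 14.6 kb from CDH1 on the negative side, lies at 0.79 in C9ko, and TANGO6 at 8.06 kb lies at -0.02.

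Around FN1, 2 genes within 500 kb were tested: ABCA12 fell by 0.46 in C9ko (limma adjusted p = 0.0315), and ATIC, 10.7 kb away, differed by 0.21 (limma adjusted p = 0.0860). CDH2 had no tested gene within 500 kb. EPCAM had 10, of which 4 rose in C9ko, against 22.0% of all tested genes. HDAC9, 18.6 kb from TWIST1, rose in C9ko by 1.08 (limma adjusted p = 0.000137), and its difference was 1.46 in A8ko and -0.34 in A2ko. For RHOA, 28 of 31 tested genes within 500 kb rose in C9ko, against 22.0% of all tested genes, with a median of 0.84. The rise of RHOA thus lay among many in the same stretch. Other genes named as higher in C9ko differed in this. Around HMGA2 6 of 11 tested genes rose, with a median of 0.84, and around AXL 0 of 21 rose, with a median of -0.03. The cause was not tested. For CTNNB1, 2 neighbours were tested, with a median of -0.05.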

How the data were processed

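RNA was measured by bulk sequencing of polyA RNA from CAL27 cells; per the labels' protocols, RNA was extracted with TRIzol and the dUTP library method marks strand. The authors deposited 1 TPM value per Ensembl gene identifier and sample, and the genome build was hg38 per the submitters' processing notes. Aligner, quantification tool, annotation and strand use in counting are not given in the sources used here. TPM keeps no depth, so counting intervals cannot be given.

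The 9 files held 7 distinct libraries: the A2ko files were identical and carried the same column name, as were the A8ko files. Values were taken as log2(TPM + 1). Symbols were found for 61463 of 78894 identifiers, and positions came from GENCODE release 29. limma 3.58.1 in R 4.3.3 (lmFit, eBayes with trend) fitted the 4 groups for C9ko against Control, and 3 knockout group means against 3 Control libraries for all knockouts, with Benjamini-Hochberg adjustment over 17100 genes. A2ko and A8ko were compared with the Control range only. The fits were tested on simulated data.

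Members and gene lists were chosen with earlier results of these data known, and the lists were written from general knowledge. From each list up to 3 genes per direction were named in C9ko, by size among called genes whose higher group averaged 5 TPM or more, and up to 2 per direction in A2ko and A8ko among genes outside the Control range by at least 1 log2 unit. For FN1 and CDH2 the 3 genes closest in group means were named. ITGA5, ITGB1, ITGB6, TP63, COL1A1 and CDH5 stand in more than 1 list. Alternatives were pseudocount 0.1, no filter or a mean of at least 5 TPM, 2 other scalings, left-out libraries, other limma settings, all 9 files as separate libraries and a replicate block. Replicate numbers are shared by Control and C9ko, but the labels do not say that they mark a common culture or day.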

Additional observations from a re-analysis of the deposited data

Results flagged for a closer look

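The following genes lay above every Control library in at least 1 knockout group and below every Control library in another. They are members or genes named above and not the full set: EHF and CD44, for example, met the same rule. Of all tested genes, 50.4% lay above and 26.3% below every Control library in A2ko. The shares were 46.9% and 26.4% in A8ko, and 41.1% and 16.4% in C9ko. The share of all tested genes with opposite sides was not counted, so the list does not mark these genes as unusual. The value given is the gap in log2(TPM + 1) between the highest and the lowest knockout group mean. The gaps were not tested: a single distinct library stands for A2ko, and likewise for A8ko. Among 20 genes, the opposite sides were kept in 20 without mitochondrial transcripts and in 18 with median of ratios scaling, where ID1 and MYLK lost them.

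Of the members, FN1 had a gap of 2.75 (A8ko and C9ko above, A2ko below Control), EPCAM one of 0.527 with the same sides, and SNAI2 one of 0.565 (A8ko above, A2ko below). Under both other scalings A8ko and A2ko kept their sides for EPCAM and SNAI2, but C9ko was no longer above Control for EPCAM and lay below it for SNAI2. The same sides as for FN1 were found for HMGA2 (2.79), INHBA (2.89), NT5E (2.17), COL17A1 (2.03), TAGLN (1.95), CTNNAL1 (1.27) and KLF4 (0.836).

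The opposite arrangement, with A2ko above and A8ko and C9ko below Control, was found for MMP10 (6.07), TIMP3 (3.35), ITGA4 (2.88), ID1 (2.22), ELF3 (1.92), CELSR2 (1.28), PCDH7 (0.718) and MYLK (0.626). COL6A2 was above Control in A2ko and below it in A8ko, with a gap of 2.47. PCDH1 was above Control in C9ko and below it in A2ko and A8ko, with a gap of 0.588.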

How the results depend on the processing

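In C9ko, CDH1, CDH2, CDH3 and FN1 kept their direction and their limma call under every alternative run. The C9ko count of 5038 genes became 8166 with all 9 files as separate libraries, 3248 with a replicate block (2420 higher, 828 lower), and 3301 to 4174 with 1 library left out, lowest without C9ko replicate 2. The block changed no member's call and, of the other genes named, ended those of JUP, NECTIN4, FAT2, PCDH7, FOXC1 and SDC1; replicate numbers of Control and C9ko did not go together (r = -0.053 and -0.012). The count of 176 genes over all knockouts became 23 with no filter, 4361 when knockouts were averaged in the fit of 4 groups, and 5 to 1993 with 1 library or group left out. It was 11, 5 and 5 without Control replicate 1, 2 and 3, 1993 without A2ko and 67 without C9ko. Median of ratios scaling left 37 higher and 96 lower there, against 87 and 89. The A2ko count of 867 became 1813 with pseudocount 0.1 and 380 at a mean of at least 5 TPM, and the A8ko count of 809 became 1689 and 412.

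Signs turned only for differences that missed the test. SNAI2 in C9ko was -0.094 with median of ratios scaling, -0.071 without mitochondrial transcripts, and -0.0078 to 0.061 with 1 library left out. Over all knockouts, SNAI2 ran from -0.15 to 0.13 with 1 library or group left out. EPCAM was -0.027 with median of ratios scaling and -0.019 to 0.24 with 1 left out. TWIST1 was -0.0031 with median of ratios scaling and -0.022 to 0.21 with 1 left out. The cause was not tested. Of 39 other genes named in C9ko, 7 lost the call under some alternative, each with its sign kept. Depth cannot be read from TPM, so the counting error of levels under 1 TPM (ZEB1, ZEB2, and VIM outside A8ko) is unknown.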
